A study of Mus musculus with 12 samples.

Results

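Small leucine-rich proteoglycans are secreted matrix proteins built on a curved stack of leucine-rich repeats, and many of them carry chondroitin, dermatan or keratan sulfate chains. They sit on the surface of collagen fibrils, where they bear on how fibrils assemble and pack in tendon, skin, cornea and cartilage. Several also hold growth factors such as transforming growth factor beta in the matrix, and biglycan released from the matrix can be sensed by innate immune cells. The genes described here are *Dcn*, *Bgn* and *Aspn* of class I, *Fmod*, *Lum*, *Prelp*, *Kera* and *Omd* of class II, *Ogn* of class III and *Podn* of class V. They were chosen by gene symbol, and all 10 are among the 18996 genes of the table. All 10 also passed the filter on low counts, which left 14765 genes for testing.

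Polyadenylated RNA was sequenced in bulk from tissue beside the spine of 12 mice, 4 in each of 3 groups. No operation mice had no surgery and gave paraspinal soft tissue. SHAM mice had soft tissue beside the spine removed with the lamina, the roof of the vertebral arch, left in place. Laminectomy mice had the lamina excised as well. By the labels, scar was taken along with paraspinal soft tissue after either operation, and the study collected these samples 7 days after surgery. The mice were BALB/c, by the study's methods aged 5 to 7 weeks and of both sexes, and the sex of each of these mice is not given. The study used an engineered line on this background in other experiments, and no label of these samples names an engineered allele. The study's own tests used 3 of the 4 mice of each group, chosen on RNA integrity and sequencing metrics and not named, and all 4 are used here. SHAM against No operation asks what the soft tissue wound goes with, and Laminectomy against SHAM asks what the opening of the spinal canal adds.

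Counts on genes totalled between 16802988 in No operation 4 and 18077863 in SHAM 1. Levels are given as CPM, counts scaled to a common library size after TMM adjustment, and levels of different members are ranked as CPM per kb of transcript. The most abundant marker of a list is the one with the highest mean CPM over the 12 mice, without regard to length. The lowest counts of the family were those of *Omd* in SHAM mice, 35 to 78 counts, and of *Kera* in SHAM 1, 21 counts. Differences were fitted over all genes with edgeR's quasi-likelihood test, and a gene is called where the p-value adjusted over all 14765 genes is below 0.05 and the absolute log2 fold change is above 0.5. Log2 fold changes are given ± their standard error.

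The libraries were not equally alike within their groups. The principal component with the largest share of the variance, 63.3%, set No operation mice apart from both surgical groups. On the next component, with 13.9%, SHAM 1 scored 76.0, and the other SHAM mice scored between 0.0748 and 24.1. Within the surgical groups, SHAM 1 and Laminectomy 1 also had the lowest mean rank correlation with the mice of their own group across genes, 0.960 for SHAM 1 against 0.973 to 0.974, and 0.967 for Laminectomy 1 against 0.977 to 0.980. No operation mice were no more alike, with 0.963 for No operation 2, 0.967 for No operation 1 and No operation 4 and 0.978 for No operation 3. No operation 3 stood apart in the family itself, with the highest level of its group in 7 of the 10 members. SHAM 3 had the highest level among SHAM mice in 8 members. Members, and genes named from the other lists with markers aside, were followed with 1 mouse left out in the comparisons whose log2 fold change is printed. Where this changes the edgeR call there, or moves a called value by over 1.5 times, the value without that mouse is given. A fit with 1 mouse fewer rests on less data, so a call near a threshold can end while its value hardly moves. Comparisons of a named gene that are not printed are not covered, and some of their calls change as well.

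The tissue sampled differed in its cell type markers between the groups. The 8 skeletal muscle fibre markers, with *Myh4* the most abundant over all mice and *Acta1* in each of the 8 mice with surgery, summed to 101576, 94701, 113702 and 134209 CPM in the No operation group, to 2325, 6112, 8504 and 9277 CPM in the SHAM group and to 3055, 13266, 11096 and 9965 CPM in the Laminectomy group. All 8 fell in both surgical groups. The 8 macrophage markers, led by *Lyz2*, summed to 1947, 1408, 1113 and 701 CPM in the No operation group, to 8744, 5362, 4819.7 and 5678 CPM in the SHAM group and to 5891, 3635, 4119 and 3481 CPM in the Laminectomy group. All 8 rose in SHAM mice and 7 rose in Laminectomy mice. The remaining lists without a member of the family beside them were smaller or mixed. Neutrophil markers, led by *S100a9*, summed to 13.7 to 1693 CPM in No operation mice, 405 to 1109.8 CPM in SHAM mice and 435 to 1698 CPM in Laminectomy mice, with 1 of 6 higher in SHAM mice and 0 called in Laminectomy mice. Endothelial markers, led by *Pecam1*, summed to 602 to 749, 443 to 603 and 434 to 647 CPM in the same order of groups, with 3 of 6 lower in SHAM mice and 2 of 6 lower in Laminectomy mice, or 1 in either with library totals in place of TMM. Schwann cell markers, led by *Pmp22*, summed to 283 to 413, 161 to 515 and 113 to 889 CPM, with 0 called in SHAM mice and 1 of 6 lower in Laminectomy mice. T cell markers stayed low, and *Trac* has no entry in the table. The 5 others, led by *Cd4*, summed to 0.911 to 4.22, 14.8 to 20.7 and 11.4 to 24.0 CPM, and the 3 that were tested rose in both surgical groups. Meningeal fibroblast markers, led by *Zic1*, summed to 82.9 to 114, 46.0 to 95.0 and 103 to 128 CPM, with 1 of 6 higher and 2 lower in SHAM mice, and 2 higher and 2 lower in Laminectomy mice. None of the markers in the table was at 0 in every mouse. Their part in the results on the family was not tested. In bulk tissue, fewer cells of a type and less RNA per cell cannot be told apart.

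Most of the family differed from No operation mice after either operation, in both directions. In SHAM against No operation, 8 of the 10 members were called, beside 50.8% of all genes tested. *Bgn* and *Lum* rose, 2 of 10 beside 25.7% of all genes, and *Dcn*, *Fmod*, *Prelp*, *Kera*, *Omd* and *Ogn* fell, 6 of 10 beside 25.1% of all genes. In Laminectomy against No operation, 8 members were called as well, beside 48.6% of all genes. *Bgn*, *Aspn* and *Lum* rose, 3 of 10 beside 24.2% of all genes, and *Dcn*, *Fmod*, *Prelp*, *Kera* and *Podn* fell, 5 of 10 beside 24.4% of all genes. These comparisons share the No operation mice, so each is given with its own values and their likeness is not counted.

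The mice of SHAM and No operation did not overlap in 6 of the 10 members, beside 54.5% of all genes, and those of Laminectomy and No operation did not overlap in 8, beside 56.0%. The median log2 fold change of the members was -0.82 in SHAM and -0.89 in Laminectomy mice against No operation, where the medians of all genes tested were -0.002 and 0.009. Without regard to direction, the median absolute log2 fold change was 1.22 in SHAM and 1.46 in Laminectomy mice, beside 0.64 and 0.59 over all genes. Scaling by library totals in place of TMM moved the median of all genes to 0.25 in SHAM and 0.33 in Laminectomy mice, and 7 members were then called in SHAM mice, 3 higher and 4 lower, with *Aspn* gained and *Dcn* and *Ogn* lost. Of all 14765 genes, 5179 were then called higher and 2671 lower in SHAM mice, against 3799 and 3703 with TMM. Relative to that median, *Dcn* in SHAM mice was at -0.96, *Ogn* at -0.69 and *Aspn* at 0.45, where TMM gave -0.94, -0.69 and 0.43.

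**Figure D1:**
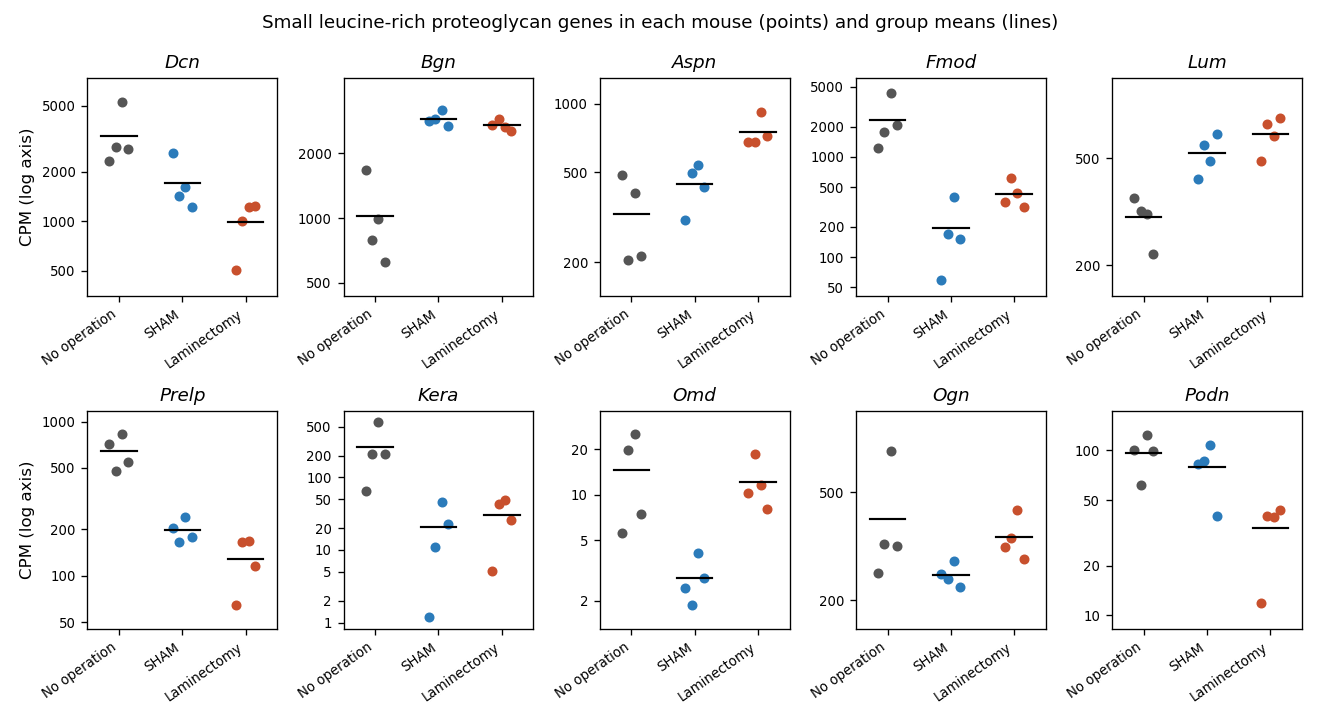
CPM of each of the 10 genes (log axis, a scale of its own for each gene) in the 4 mice of each group, with points for mice and lines for group means. *Bgn* and *Lum* lie higher in both surgical groups without overlap with No operation mice, and *Fmod*, *Prelp* and *Kera* lie lower without overlap.

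*Dcn* encodes decorin, which binds collagen fibrils and transforming growth factor beta and carries a chondroitin or dermatan sulfate chain (gene identifier 13179, chr10:97479500-97518163, plus strand of GRCm38). It was at 2322, 2826, 5245 and 2757 CPM in the No operation group, at 2606, 1412, 1610.2 and 1215 CPM in the SHAM group and at 505, 1007, 1210.2 and 1242 CPM in the Laminectomy group. No operation 3 was far above the rest, SHAM 1 lay within the No operation range, and every Laminectomy mouse lay below every No operation mouse. The group means were 3288 ± 1324, 1711 ± 618 and 991 ± 341 CPM (SD, n = 4). Against No operation, the log2 fold change in Laminectomy mice was -1.73 ± 0.360 (adjusted p = 0.00163, edgeR), 3.32 times lower. In SHAM mice it was -0.94 ± 0.353 (adjusted p = 0.0359, edgeR), and this call ended with library totals in place of TMM (-0.70, adjusted p = 0.0983). The SHAM call also ended with some single mice left out. It was lost without No operation 3 (-0.62, adjusted p = 0.131), without SHAM 2 (-0.86, adjusted p = 0.0871), without SHAM 3 (-0.91, adjusted p = 0.0736) or without SHAM 4 (-0.81, adjusted p = 0.0950), all by edgeR. The value moved by 1.25 times without No operation 3 and by at most 1.10 times without any of these SHAM mice. The genes most like *Dcn* over the 12 mice were *Plpp3* and *Cped1*, whose log2 CPM, centred on each gene's mean, differed from those of *Dcn* by a root mean square of 0.27 for each, where *Dcn* itself spread by 0.85.

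Biglycan, the product of *Bgn*, is the closest relative of decorin and carries chondroitin or dermatan sulfate chains (gene identifier 12111, chrX:73483601-73495936, plus strand). The gene was at 1677, 787, 992 and 622 CPM in the No operation group, at 2844, 2879.6, 3194 and 2675 CPM in the SHAM group and at 2705, 2906, 2656 and 2556 CPM in the Laminectomy group. All 8 mice with surgery lay above all 4 without it, and No operation 1 was the highest of its group. Group means were 1019.7 ± 464, 2898 ± 216 and 2706 ± 147 CPM (SD, n = 4), so the spread between mice was smaller after surgery. *Bgn* rose 2.84 times in SHAM mice, at a log2 fold change of 1.51 ± 0.261 (adjusted p = 0.000443, edgeR). Its rise in Laminectomy mice was 2.65 times, at a log2 fold change of 1.41 ± 0.260 (adjusted p = 0.000771, edgeR). Both calls held under every scaling, filter and left-out mouse tried. *Ephb2* and *Cd63* followed *Bgn* most closely over the 12 mice (root mean square difference 0.15 for each, where *Bgn* spread by 0.80).

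*Aspn* encodes asporin, a collagen- and calcium-binding relative of decorin that bears an aspartate stretch in place of the chain attachment site (gene identifier 66695, chr13:49544443-49567565, plus strand). Levels were 487, 204, 406 and 214 CPM in the No operation group, 308, 494, 534 and 429 CPM in the SHAM group and 677, 675, 923 and 722 CPM in the Laminectomy group. Laminectomy mice stood above all mice of both other groups, and SHAM mice overlapped with No operation mice, which were split into a higher and a lower pair. The means were 328 ± 141, 441 ± 98.9 and 749 ± 118 CPM (SD, n = 4). *Aspn* rose 2.29 times in Laminectomy mice against No operation, at a log2 fold change of 1.19 ± 0.287 (adjusted p = 0.00395, edgeR). In SHAM mice it was not called, at 0.43 ± 0.284 (adjusted p = 0.207, edgeR), although it passed with library totals (0.70, adjusted p = 0.0475) and without No operation 1 (0.68, adjusted p = 0.0481). That *Aspn* was called after Laminectomy and not after SHAM does not show a difference between the operations, which was tested separately. The 2 genes nearest to *Aspn* in pattern were *Itga11* and *Slc1a4* (root mean square 0.26 and 0.30, against a spread of 0.65). The deposited values of *Aspn* were not whole numbers in 9 of the 12 mice, the only such member, and 7 of its exon bases lie opposite an exon of *Cenpp* on the other strand.

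In summed level, fibroblast markers were higher in all 8 mice with surgery than in all 4 without, as were *Bgn* and *Lum*, while *Aspn* in SHAM 1 and SHAM 4 lay within the No operation range. The 10 markers, with *Postn* the most abundant, summed to 3975, 1511, 1781 and 1584 CPM in the No operation group, to 5319, 6199, 6776 and 6271 CPM in the SHAM group and to 5690.0, 6269.8, 7558 and 6538 CPM in the Laminectomy group. The gap rests on *Postn*, to which DESeq2 gave no adjusted p against No operation. Without it the sums were 1922, 1182, 1592 and 1484 CPM in the No operation group, 2144, 2370.2, 2354 and 1917 CPM in the SHAM group and 1592, 1679.7, 1807 and 1852 CPM in the Laminectomy group, and all Laminectomy mice and SHAM 4 lay within the No operation range. No operation 1, highest of its group in *Bgn*, *Aspn* and *Lum*, was also highest of its group in this sum, with or without *Postn*. In SHAM mice 6 of the 10 markers rose and 0 fell, and in Laminectomy mice 6 rose and 2, *Pi16* and *Cd34*, fell. What part they have in the values of the 3 genes was not tested.

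*Fmod*, the gene of fibromodulin, a keratan sulfate proteoglycan that binds collagen and is abundant in tendon and cartilage (gene identifier 14264, chr1:134037254-134048280, plus strand), had the largest called differences among the members together with *Kera*. It was at 1224, 1753, 4340.0 and 2093 CPM in the No operation group, at 59.0, 170.4, 397 and 151 CPM in the SHAM group and at 358, 613, 441 and 313 CPM in the Laminectomy group. All mice with surgery lay below all mice without, and SHAM 1 was the lowest of the 12. The means were 2353 ± 1372, 194 ± 144 and 432 ± 132 CPM (SD, n = 4). In SHAM mice *Fmod* was 12.1 times lower, at a log2 fold change of -3.60 ± 0.575 (adjusted p = 0.000256, edgeR), which was -4.21 without SHAM 3. Laminectomy mice had 5.45 times less, at a log2 fold change of -2.45 ± 0.547 (adjusted p = 0.00253, edgeR). Its nearest genes in pattern, *Sox6* and *Rxrg*, were at root mean square differences of 0.51 and 0.55, where *Fmod* spread by 1.70.

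Lumican, encoded by *Lum*, is a keratan sulfate proteoglycan of cornea and skin that limits fibril thickness (gene identifier 17022, chr10:97565501-97572703, plus strand). Its gene was at 357, 319, 310.2 and 220.0 CPM in the No operation group, at 420.2, 561, 489 and 618 CPM in the SHAM group and at 487, 672, 604 and 709 CPM in the Laminectomy group. As with *Bgn*, all mice with surgery were above all mice without. Means of 302 ± 58.1, 522 ± 85.9 and 618 ± 97.6 CPM (SD, n = 4) differ by the smallest fold from No operation among the 6 members called in both comparisons. The log2 fold change was 0.79 ± 0.181 (adjusted p = 0.00276, edgeR) in SHAM mice, 1.73 times higher than in No operation mice. For Laminectomy mice it was 1.03 ± 0.182 (adjusted p = 0.000567, edgeR), or 2.05 times higher. *Atp13a3* and *Ttyh2* were most like it (root mean square 0.18 for each, where *Lum* spread by 0.50).

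*Prelp* encodes prolargin, whose basic end binds heparan sulfate and which links collagen to basement membranes (gene identifier 116847, chr1:133910304-133930102, minus strand). The values were 715, 475, 831 and 546 CPM in the No operation group, 203, 166, 239 and 178 CPM in the SHAM group and 64.8, 165, 169 and 115 CPM in the Laminectomy group. Both surgical groups lay wholly below No operation mice, and Laminectomy 1 was the lowest. The means were 642 ± 162, 197 ± 32.0 and 128 ± 49.0 CPM (SD, n = 4). *Prelp* was 3.26 times lower in SHAM mice, with a log2 fold change of -1.71 ± 0.288 (adjusted p = 0.000368, edgeR). In Laminectomy mice it was 4.999 times lower, with a log2 fold change of -2.32 ± 0.294 (adjusted p = 6.84e-05, edgeR). *Gm15851*, an antisense gene absent from the table, shares 350 exon bases with *Prelp*. Counting at default settings, as the study states it, does not use strand, and how reads over these bases were assigned is not known. The most similar genes over the 12 mice were *Mturn* and *Gstm1* (root mean square 0.27 and 0.30, against a spread of 1.07).

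*Kera* encodes keratocan, a keratan sulfate proteoglycan best known from the cornea (gene identifier 16545, chr10:97606962-97613688, plus strand). It was at 63.9, 208, 578 and 210.1 CPM in the No operation group, at 1.18, 11.1, 46.4 and 23.0 CPM in the SHAM group and at 5.14, 43.2, 48.5 and 25.6 CPM in the Laminectomy group. No operation 3 was the highest and No operation 1 the lowest of a widely spread group, yet even the lowest exceeded all mice with surgery. The means were 265 ± 219.8, 20.4 ± 19.5 and 30.6 ± 19.6 CPM (SD, n = 4), with SDs that are large against the means. In SHAM mice *Kera* was 13.0 times lower, at a log2 fold change of -3.70 ± 1.000 (adjusted p = 0.00729, edgeR). This value was -2.98 without No operation 3 and -4.49 without SHAM 3. For Laminectomy mice the fold was 8.66 times lower, at a log2 fold change of -3.11 ± 0.972 (adjusted p = 0.0162, edgeR), and this call was lost without No operation 3 (-2.39, adjusted p = 0.0523). The genes closest to it were *Cilp2*, at a root mean square of 0.63, and *Igfn1*, at 0.76, where *Kera* spread by 2.31.

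Tendon cell markers followed *Fmod* and *Kera* in part. The 6 markers, with *Thbs4* the most abundant, summed to 3901, 1753, 5055 and 1971 CPM in the No operation group, to 476, 1049, 2885 and 1763 CPM in the SHAM group and to 1315, 2887, 2571 and 1975 CPM in the Laminectomy group. SHAM 1, lowest of the 12 mice in *Fmod* and *Kera*, was also lowest in this sum, and No operation 3 was highest in all of them. SHAM 3, highest of its group in *Fmod* and *Kera*, was highest of its group in the sum. No operation 1 went the other way. It was lowest of its group in *Fmod* and *Kera*, but its sum of 3901 CPM was exceeded by No operation 3 alone. In the sum, the Laminectomy group reached 2887 CPM and SHAM 3 had 2885 CPM, above the 1753 and 1971 CPM of the No operation group. Yet *Fmod* and *Kera* were lower in all mice with surgery than in all mice without. Of the 6 markers 3 fell in SHAM mice and 0 were called in Laminectomy mice. Their part in the values of *Fmod* and *Kera* was not tested.

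*Omd* encodes osteomodulin, a class II member found mainly in bone and tooth matrix (gene identifier 27047, chr13:49582462-49592612, plus strand), and it had the lowest level of the family per kb of transcript in all 3 groups. It was at 5.58, 19.7, 25.4 and 7.50 CPM in the No operation group, at 2.42, 1.87, 4.13 and 2.83 CPM in the SHAM group and at 10.2, 18.5, 11.7 and 8.08 CPM in the Laminectomy group. SHAM mice lay below all other mice, and Laminectomy mice lay within the No operation range. The means were 14.5 ± 9.56, 2.81 ± 0.962 and 12.1 ± 4.51 CPM (SD, n = 4). *Omd* was 5.16 times lower in SHAM mice than in No operation mice, at a log2 fold change of -2.37 ± 0.484 (adjusted p = 0.00134, edgeR). In Laminectomy against No operation it was not called, at -0.26 ± 0.452 (adjusted p = 0.637, edgeR), and the sign turned with library totals (0.03) and without No operation 3 (0.14). *Cadm1* and *Smpd3* were nearest in pattern (root mean square 0.49 and 0.54, against a spread of 1.16).

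Bone and cartilage markers followed *Omd* in some mice only. The 8 osteoblast and osteocyte markers, led by *Ibsp*, summed to 1.45, 509, 143 and 4.14 CPM in the No operation group, to 1.35, 109, 34.8 and 106 CPM in the SHAM group and to 1645, 1583, 647 and 581 CPM in the Laminectomy group. All Laminectomy mice were above all SHAM and No operation mice in this sum, which rests on *Ibsp*. Without it Laminectomy mice had 146, 208, 73.6 and 80.1 CPM and No operation 2 had 285 CPM. In No operation mice the sum was high in the same 2 mice, No operation 2 and No operation 3, in which *Omd* was high. In SHAM mice it did not follow *Omd*, since SHAM 2 had the lowest *Omd* and the highest sum. By edgeR 1 of the 8 was called, lower in SHAM mice. DESeq2 called 3 lower in SHAM mice, with *Dmp1* and *Phex* added (adjusted p = 0.0458 and 0.0407), and *Ibsp* higher in Laminectomy mice (log2 fold change 3.73, adjusted p = 0.0239). The 8 chondrocyte markers, led by *Col2a1*, summed to 25.4, 268, 80.7 and 14.7 CPM in the No operation group, to 10.4, 40.8, 120.1 and 52.8 CPM in the SHAM group and to 429, 1068, 312 and 181 CPM in the Laminectomy group, with 1 of 8 higher in SHAM mice and 2 higher in Laminectomy mice by edgeR. In Laminectomy mice 5 were higher with library totals in place of TMM and 3 by DESeq2, which also called 1 lower in SHAM mice. The spread within the No operation group was wide for both sums. Between Laminectomy and SHAM mice edgeR called 0 markers of either list. There DESeq2 called 4 of the 8 chondrocyte markers higher in Laminectomy mice and 0 of the bone markers, beside 4.20% of all genes it tested. What part bone or cartilage in the samples has in the values of *Omd* was not tested.

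*Ogn*, the class III member, encodes osteoglycin, also called mimecan, which takes part in collagen fibril assembly (gene identifier 18295, chr13:49608015-49624501, plus strand). The gene was at 252, 322, 709 and 317 CPM in the No operation group, at 249, 239, 278 and 224 CPM in the SHAM group and at 313, 339, 430.5 and 283 CPM in the Laminectomy group. No operation 3 was higher than any other mouse, and No operation 1 lay within the SHAM range. The means were 400.0 ± 209, 248 ± 22.8 and 341 ± 63.7 CPM (SD, n = 4). The fall in SHAM mice, 1.62 times, was the least secure call of the family, with a log2 fold change of -0.69 ± 0.281 (adjusted p = 0.0494, edgeR), and it ended with library totals (-0.44, adjusted p = 0.191) and with RLE size factors (-0.69, adjusted p = 0.0514) in place of TMM. It was also lost without No operation 3 (-0.26, adjusted p = 0.182), without SHAM 1 (-0.69, adjusted p = 0.0862), without SHAM 2 (-0.67, adjusted p = 0.0948), without SHAM 3 (-0.75, adjusted p = 0.0634) and without SHAM 4 (-0.65, adjusted p = 0.105), all by edgeR. The value moved by 1.35 times without No operation 3 and by at most 1.04 times without any SHAM mouse. In Laminectomy mice *Ogn* was not called, at -0.23 ± 0.279 (adjusted p = 0.502, edgeR), and the sign turned with library totals (0.09) and without No operation 3 (0.20). Over the 12 mice, *Setbp1* and *Zfhx4* were most like it (root mean square 0.25 and 0.26, against a spread of 0.43).

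*Podn*, the class V member, encodes podocan, a collagen-binding protein (gene identifier 242608, chr4:108014793-108031954, minus strand). Its values were 101, 62.1, 123 and 98.7 CPM in the No operation group, 82.7, 86.2, 107 and 39.9 CPM in the SHAM group and 11.9, 40.2, 39.5 and 43.5 CPM in the Laminectomy group. Laminectomy mice lay below all No operation mice, Laminectomy 1 far below the rest of its group, and SHAM 4 lay among the Laminectomy mice. The means were 96.1 ± 25.2, 79.0 ± 28.2 and 33.8 ± 14.7 CPM (SD, n = 4). Against No operation, *Podn* was 2.85 times lower in Laminectomy mice, at a log2 fold change of -1.51 ± 0.395 (adjusted p = 0.00644, edgeR), and at -1.225 without Laminectomy 1 (adjusted p = 0.00661, edgeR). It was not called in SHAM mice, at -0.28 ± 0.386 (adjusted p = 0.541, edgeR). The nearest genes in pattern were *Cygb* and *Nova1* (root mean square 0.25 and 0.27, against a spread of 0.91). Adipocyte markers were lowest in the same mouse as *Podn*, *Dcn* and *Prelp*, Laminectomy 1, but did not follow *Podn* in SHAM mice. The 6 markers, led by *Cfd*, summed to 2195, 3582, 3082 and 3660.5 CPM in the No operation group, to 308, 62.0, 1792 and 139 CPM in the SHAM group and to 6.99, 114, 223 and 211 CPM in the Laminectomy group. SHAM 2 had the lowest sum of its group, with *Podn* at 86.2 CPM, above the 62.1 CPM of No operation 2. Of these 6, 4 fell in SHAM mice and all 6 fell in Laminectomy mice, and their part in the values of the 3 genes was not tested.

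**Figure D2:**
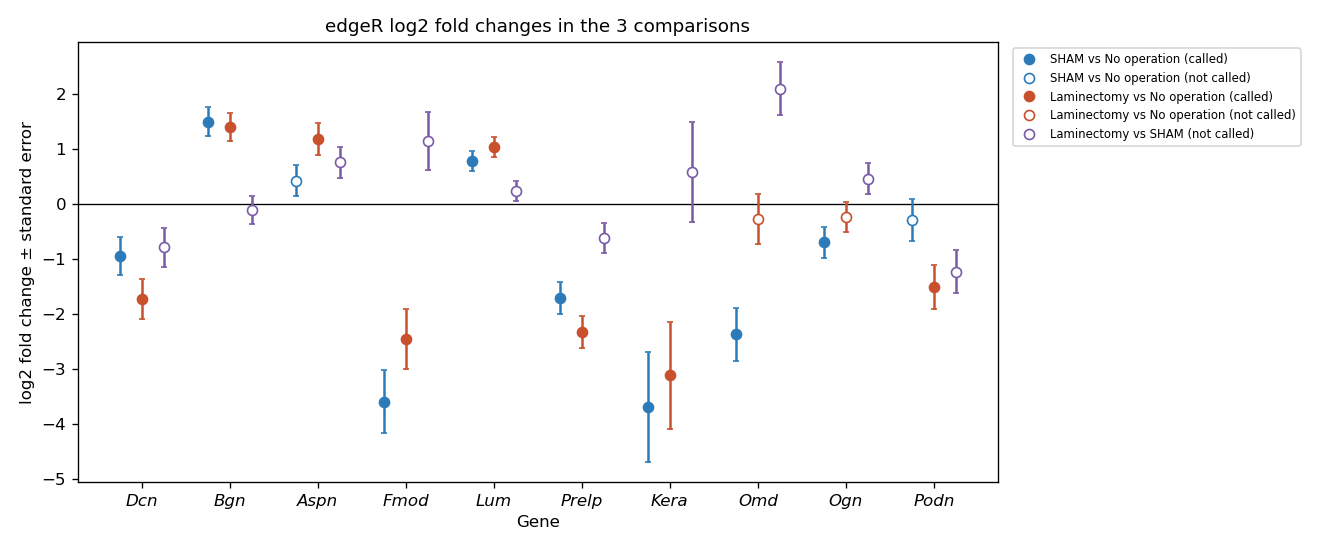
Log2 fold changes from edgeR with their standard errors as bars for the 10 genes in the 3 comparisons, filled where called and open where not. Values run from -3.70 for *Kera* in SHAM against No operation to 2.10 for *Omd* in Laminectomy against SHAM, which is not called.

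The ratio of *Bgn* to *Dcn* within each library, which no scaling of libraries can alter, was tested as a single value because they are the closest paralogs of the family. It draws on the same counts as the results for each gene and adds no separate evidence to them. In No operation mice *Bgn* had 0.722, 0.278, 0.189 and 0.226 counts for each count of *Dcn*. In SHAM mice it had 1.09, 2.04, 1.98 and 2.20, and in Laminectomy mice 5.36, 2.88, 2.19 and 2.06. So *Dcn* had more counts than *Bgn* in every mouse without surgery and *Bgn* had more counts than *Dcn* in every mouse with it. Per kb of transcript, *Dcn* was still above *Bgn* in SHAM 1 (1483 and 1176 CPM per kb). In counts, SHAM 1 was closest to an even ratio and Laminectomy 1 farthest from it. The log2 ratio averaged -1.72 ± 0.862 in No operation, 0.82 ± 0.467 in SHAM and 1.53 ± 0.630 in Laminectomy mice (SD, n = 4). It was higher by 2.54 in SHAM than in No operation mice, in 4 of 4 mice (two-sided exact permutation test, p = 0.0286, adjusted over the 3 comparisons p = 0.0429). Laminectomy mice exceeded No operation mice by 3.25, in 4 of 4 mice (exact permutation p = 0.0286, adjusted p = 0.0429), where 0.0286 is the smallest p that 4 against 4 mice can give. Both calls ended when any 1 mouse was left out, and with the replicate number as a block. Fewer mice or pairs raise the smallest p that can be reached. Between Laminectomy and SHAM mice the ratio differed by 0.71, with groups that overlap (exact permutation p = 0.0857, adjusted p = 0.0857).

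The family as a whole took a modest share of each library. The 10 members summed to 6977 to 13561 CPM in No operation mice, the highest in No operation 3, to 5556 to 6899 CPM in SHAM mice and to 5136 to 6533 CPM in Laminectomy mice. As a share of all counts this was 0.602% to 1.18%, 0.586% to 0.728% and 0.539% to 0.723%. Its make-up shifted from *Dcn* and *Fmod* to *Bgn*. Of the summed CPM per kb of transcript, *Dcn* held 49.0 ± 4.47% in No operation mice, 33.9 ± 8.70% in SHAM mice and 21.3 ± 5.90% in Laminectomy mice (mean ± SD, n = 4). The share of *Bgn* was 12.02 ± 6.96%, 42.7 ± 3.75% and 43.6 ± 5.80% in the same order, and that of *Fmod* was 19.0 ± 4.86%, 2.21 ± 1.49% and 5.32 ± 1.38%. SHAM 1 kept a *Dcn* share of 46.9%, where the other SHAM mice had 28.3% to 30.3%. *Aspn* held 3.87 ± 1.89%, 6.82 ± 1.77% and 12.4 ± 1.60%, and *Lum* 3.49 ± 1.16%, 7.74 ± 2.17% and 9.73 ± 0.988%. *Prelp* held 4.85 ± 1.08%, 1.93 ± 0.213% and 1.34 ± 0.399%, and *Ogn* 3.98 ± 0.631%, 3.43 ± 0.245% and 5.14 ± 0.802%. *Kera*, *Podn* and *Omd* each held less than 3% in the mean of every group. These shares hold for the longest protein-coding transcript as the length. With all exon bases of each gene as its length, chosen after seeing the data, the shares in the same order of groups were 25.78%, 20.79% and 11.06% for *Dcn*, 8.402%, 33.79% and 29.67% for *Bgn* and 31.29%, 4.061% and 8.6% for *Fmod*. *Aspn* then held 6.734%, 13.33% and 21.13%, *Lum* 6.145%, 15.33% and 16.73%, *Prelp* 8.504%, 3.851% and 2.295%, and *Ogn* 6.939%, 6.852% and 8.809%, and *Kera* held 4.84% in No operation mice.

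**Figure D3:**
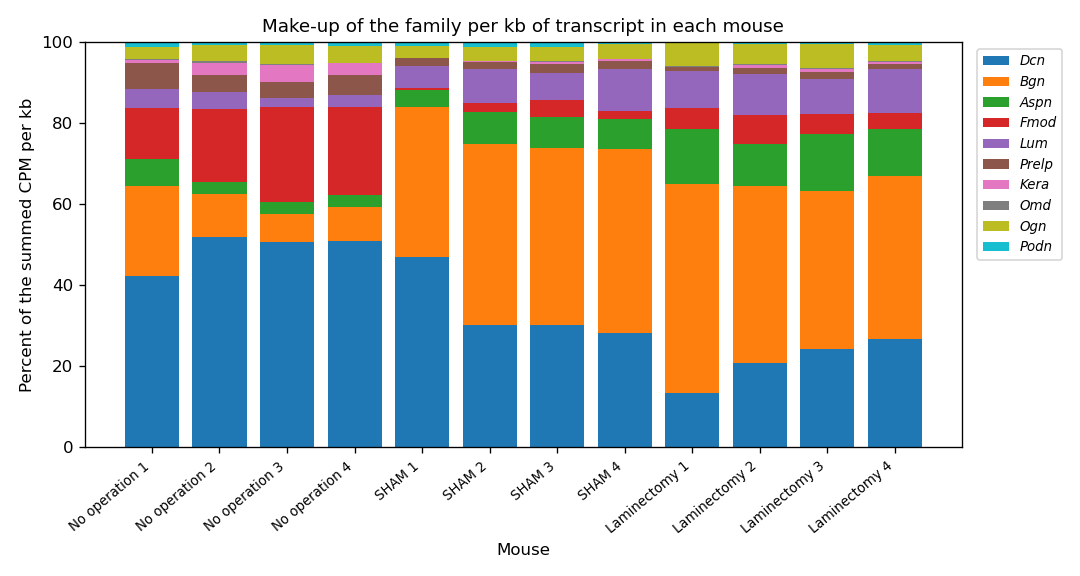
Percent of the summed CPM per kb of the longest protein-coding transcript held by each of the 10 genes in each mouse, grouped by operation. *Dcn* takes 49.0% on average in No operation mice and 21.3% in Laminectomy mice, and *Bgn* 12.02% and 43.6%.

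Ordered by mean CPM per kb of transcript, No operation mice had *Dcn* at 1870.0, *Fmod* at 754, *Bgn* at 422, *Prelp* at 178, *Ogn* at 156, *Aspn* at 141, *Lum* at 123, *Kera* at 116, *Podn* at 30.3 and *Omd* at 6.47. Neighbours in this order overlapped between mice except *Bgn* and *Prelp*, and *Podn* and *Omd*. In SHAM mice the order was *Bgn* at 1198, *Dcn* at 973, *Lum* at 213, *Aspn* at 189.6, *Ogn* at 96.5, *Fmod* at 62.3, *Prelp* at 54.4, *Podn* at 24.9, *Kera* at 8.96 and *Omd* at 1.25. There *Dcn* and *Lum*, *Aspn* and *Ogn*, and *Prelp* and *Podn* were the neighbours that did not overlap. Laminectomy mice had *Bgn* at 1118, *Dcn* at 564, *Aspn* at 322, *Lum* at 252, *Fmod* at 138, *Ogn* at 133, *Prelp* at 35.5, *Kera* at 13.4, *Podn* at 10.7 and *Omd* at 5.39. Here *Bgn* and *Dcn*, *Aspn* and *Lum*, *Lum* and *Fmod*, and *Ogn* and *Prelp* did not overlap. The length was that of the longest protein-coding transcript, and the order depends on it. With all exon bases of each gene as its length, chosen after seeing the data, *Fmod* came before *Dcn* (712 and 563) and *Prelp* before *Bgn* (177.6 and 167.2) in No operation mice, and in Laminectomy mice *Dcn* came after *Aspn* and *Lum* and *Ogn* came before *Fmod*.

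Between Laminectomy and SHAM mice, edgeR called 0 of the 10 members and 0% of all genes, and the smallest adjusted p of any gene was 0.0698. At an unadjusted p below 0.05 there were 4 members, *Dcn*, *Aspn*, *Omd* and *Podn*, beside 16.0% of all genes (2359 genes). The mice of the groups did not overlap in 3 members, *Aspn*, *Omd* and *Ogn*, all higher in Laminectomy mice, beside 10.1% of all genes. *Omd* had the largest difference, at a log2 fold change of 2.10 ± 0.481 (adjusted p = 0.111, edgeR). For *Podn* it was -1.23 ± 0.393 (adjusted p = 0.175, edgeR). DESeq2 called these 2 members beside 4.20% of all genes it tested (687 of 16357), *Omd* at 2.11 (adjusted p = 0.00154) and *Podn* at -1.22 (adjusted p = 0.0448), so their standing between the operations depends on the tool. *Aspn* was at 0.76 ± 0.285 (adjusted p = 0.225, edgeR) and *Dcn* at -0.79 (adjusted p = 0.303, edgeR). The other members lay between -0.62 for *Prelp* and 1.15 for *Fmod*, with adjusted p of 0.313 for both by edgeR. The median log2 fold change of the 10 was 0.35 beside 0.004 over all genes, and the median absolute value 0.69 beside 0.19.

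Relatives of the family outside the 10 members moved in both directions too. Of 8 other genes of small leucine-rich repeat proteins, all tested, 2 rose and 5 fell in SHAM mice (median log2 fold change -1.02), and 2 rose and 4 fell in Laminectomy mice (-0.62). With library totals in place of TMM, 4 and 2 of them fell. Beside this list and those that follow stand the shares of all genes with TMM, of which 25.7% rose and 25.1% fell in SHAM mice and 24.2% rose and 24.4% fell in Laminectomy mice. Counts with library totals stand beside other numbers of all 14765 genes. In SHAM mice 5179 then rose and 2671 fell, against 3799 and 3703 with TMM. In Laminectomy mice 5456 then rose and 2347 fell, against 3578 and 3605. *Chad*, the gene of the cartilage protein chondroadherin, was at a mean of 425 CPM in No operation mice and fell to 7.72 in SHAM and 33.5 in Laminectomy mice, log2 fold changes of -5.78 and -3.67 (adjusted p = 9.01e-05 and 0.00108, edgeR), the former -6.41 without SHAM 3. *Epyc*, the gene of epiphycan, fell from 53, 73, 51 and 73 counts in No operation mice to 0, 5, 19 and 3 counts in SHAM mice and 7, 34, 16 and 24 counts in Laminectomy mice, where the call ended with library totals (-1.66, adjusted p = 0.0528, edgeR). That call was also lost without No operation 4 (-1.87, adjusted p = 0.0576), Laminectomy 1 (-1.71, adjusted p = 0.0613) or Laminectomy 3 (-1.89, adjusted p = 0.0647) by edgeR, and the log2 fold change in SHAM mice went from -3.51 to -4.79 without SHAM 3. *Tsku*, the gene of tsukushi, rose by 1.69 in SHAM and 1.41 in Laminectomy mice on the log2 scale. *Podnl1*, a relative of *Podn*, rose by 1.97 and 3.12, from counts of 6, 47, 15 and 1 in No operation mice. Its SHAM call was lost without No operation 1 (1.70, adjusted p = 0.0561), No operation 3 (1.92, adjusted p = 0.0559) or SHAM 2 (1.76, adjusted p = 0.0580) by edgeR, and without No operation 2 the values were 3.13 and 4.29.

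The enzymes that build and sulfate the chains of these proteins were mostly higher after surgery or not called. For chondroitin and dermatan sulfate, 12 of 22 rose and 1 fell in SHAM mice (median log2 fold change 0.82), and 12 rose and 0 fell in Laminectomy mice (0.84), and with library totals 15 and 14 rose. Among them *Chsy1*, a chondroitin synthase, rose from a mean of 25.02 CPM to 87.7 in SHAM and 108 in Laminectomy mice, 1.81 and 2.11 on the log2 scale. *Csgalnact1*, which starts chondroitin chains, rose by 2.14 in SHAM mice (2.76 without No operation 1), and the synthase *Chsy3* by 2.29 in Laminectomy mice. *Chst3*, a chondroitin sulfotransferase, fell in SHAM mice (-1.57) and was not called in Laminectomy mice (-0.40). The sulfotransferases *Chst7* in SHAM mice (0.45) and *Chst12* in Laminectomy mice (0.42) were not called, and both were called higher with library totals (0.71 and 0.73), as was *Chst12* without No operation 2 (0.54). For keratan sulfate, 7 of 9 enzymes were tested, 3 rose and 1 fell in either surgical group, with medians of 0.63 in SHAM and 0.85 in Laminectomy mice. With library totals 4 rose and 0 fell in SHAM mice, and 5 rose and 1 fell in Laminectomy mice. *Chst1*, the main keratan sulfate galactose sulfotransferase, fell, at -0.67 in SHAM and -1.04 in Laminectomy mice, and its SHAM call ended with library totals (-0.42, adjusted p = 0.117, edgeR) and without No operation 4 (-0.58, adjusted p = 0.0519, edgeR). The galactosyltransferase *B4galt1* (1.13 and 0.85), the sulfotransferase *Chst2* (1.33 and 1.93) and *B3gnt7*, an enzyme of chain extension (2.33 and 2.14, from counts of 17, 6, 3 and 0 in No operation mice), rose. *B3gnt7* was at 3.46 and 3.26 without No operation 1, and its Laminectomy call was lost without No operation 3 (1.90, adjusted p = 0.0558, edgeR).

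Of 11 proteases that trim or cleave these proteins, 9 rose and 1 fell in SHAM mice (median log2 fold change 1.99), and 7 rose and 1 fell in Laminectomy mice (1.61). In Laminectomy mice 9 rose with library totals. *Adamts4*, an aggrecanase, rose from 7.19 CPM to 83.8 in SHAM and 104 in Laminectomy mice, 3.54 and 3.85 on the log2 scale, or 4.99 and 5.30 without No operation 1. *Gzmb*, the gene of the cytotoxic protease granzyme B, was called higher in both, from 5, 2, 2 and 1 counts in No operation mice to 277, 46, 61 and 42 counts in SHAM mice and 62, 29, 35 and 21 counts in Laminectomy mice. SHAM 1 alone held most of the SHAM counts, and DESeq2 gave *Gzmb* no adjusted p. The log2 fold change in SHAM mice was 5.07, and 3.93 without SHAM 1 (adjusted p = 0.000126, edgeR). *Tll1*, a tolloid-like protease of the family of the procollagen C-proteinase, rose by 0.55 in SHAM mice, a call lost without No operation 1 (0.502, adjusted p = 0.0513), SHAM 1 (0.46, adjusted p = 0.0636) or SHAM 3 (0.49, adjusted p = 0.0554) by edgeR. Its relative *Tll2* fell, from 24, 10, 13 and 28 counts in No operation mice to 0, 2, 0 and 0 counts in SHAM mice (-5.23, or -7.48 without SHAM 2) and 6, 8, 1 and 1 counts in Laminectomy mice. *Adamts5* was not called in Laminectomy mice (-0.54), and was called lower without No operation 4 (-0.67) or Laminectomy 4 (-0.75). In SHAM mice it was called higher (0.67). That call was lost without No operation 1 (0.64, adjusted p = 0.0575), No operation 4 (0.53, adjusted p = 0.0788) or SHAM 1 (0.54, adjusted p = 0.0819) by edgeR.

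Of 19 ligands and receptors known to bind members of the family, 10 rose and 5 fell in SHAM mice (median log2 fold change 0.51), and 9 rose and 4 fell in Laminectomy mice (0.43). The share that fell was near that of all genes in both. With library totals 10 rose and 2 fell in SHAM mice, and 11 rose and 1 fell in Laminectomy mice. The receptor *Tlr2*, through which biglycan can signal, rose from 15.3 to 95.2 CPM in SHAM mice (2.64). Its coreceptor *Cd14* rose by 3.52 in SHAM (2.93 without SHAM 1) and 2.22 in Laminectomy mice. Macrophages express both genes, their markers rose in the same mice, and their part in these values was not tested. *Ccn4*, a matricellular protein that binds decorin and biglycan, rose by 2.37 in Laminectomy mice. *Bmp4* fell from 31.4 to 3.54 CPM in SHAM and 5.17 CPM in Laminectomy mice (-3.15 and -2.60), and *Bmp2* fell in SHAM mice (-1.35). The collagen-binding integrin gene *Itga2* fell in Laminectomy mice (-0.95), a call that ended with library totals (-0.64, adjusted p = 0.124, edgeR), without No operation 2 (-0.90, adjusted p = 0.0629, edgeR), without No operation 3 (-0.499, adjusted p = 0.132, edgeR) and without any 1 of the Laminectomy mice (-0.88 to -1.001, adjusted p 0.0510 to 0.0771, edgeR).

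The fibril collagens and partners on which these proteins sit rose for the most part. In SHAM mice 12 of 16 rose and 0 fell (median log2 fold change 1.38), and in Laminectomy mice 12 rose and 1 fell (1.77). *Col3a1* rose from a mean of 3608 to 25849.5 CPM in SHAM mice (2.84, with no adjusted p from DESeq2), and *Lox*, the gene of the collagen crosslinking enzyme lysyl oxidase, by 2.499. Without No operation 1 these were 4.03 and 3.29. In Laminectomy mice *Col5a1* rose by 2.52 (3.26 without No operation 1) and *Col5a2* by 2.20. *Tnxb*, the gene of tenascin X, a collagen-linking glycoprotein, was not called in SHAM mice by edgeR (-1.48, adjusted p = 0.0678) but was by DESeq2 (adjusted p = 0.0298), and fell in Laminectomy mice (-3.14), where Laminectomy 1 had 109 counts and the others 2524 to 2638. Without Laminectomy 1 *Tnxb* was still called and moved by less than 1.5 times. *Col11a1* in SHAM mice (-0.15, and 0.09 with library totals) and *Eln*, the gene of elastin, in Laminectomy mice (0.46) were not called. In SHAM mice *Eln* was called higher (1.89, or 2.71 without No operation 1). That call was lost without No operation 2 (1.66, adjusted p = 0.0720), No operation 3 (1.71, adjusted p = 0.0776) or No operation 4 (1.73, adjusted p = 0.0748) by edgeR. It was also lost without SHAM 1 (1.86, adjusted p = 0.0512) or SHAM 3 (1.20, adjusted p = 0.120) by edgeR.

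Between Laminectomy and SHAM mice edgeR called 0 genes of any of these lists, as of all genes. The counts by DESeq2 that follow stand beside 4.20% of all genes it tested (687 of 16357), called in either direction. DESeq2 called 1 of 8 relatives, *Chad*, higher in Laminectomy mice (log2 fold change 2.12, adjusted p = 0.0240), and 1 of 16 fibril collagens and partners, *Col11a1*, also higher (1.91, adjusted p = 0.00327). It called 1 of 11 proteases, *Adamts5*, lower (-1.20, adjusted p = 0.000527), and 1 of 22 chondroitin and dermatan sulfate enzymes, the xylosyltransferase *Xylt2*, lower (-0.59, adjusted p = 0.0279). Of 19 ligands and receptors DESeq2 called *Tgfb2* higher (0.81, adjusted p = 0.0115) and the receptors *Tlr4* (-0.72, adjusted p = 0.0496) and *P2rx7* (-0.59, adjusted p = 0.0247) lower. These genes are named because the counts are small, after their values were seen. Of 7 keratan sulfate enzymes it called 0. Besides the chondrocyte markers, DESeq2 called the fibroblast markers *Pi16* (-2.39, adjusted p = 0.00899) and *Cd34* (-0.76, adjusted p = 0.0471) and the macrophage marker *Mrc1* (-1.31, adjusted p = 0.0127) lower in Laminectomy than in SHAM mice. It called the fibroblast marker *Fap* (0.76, adjusted p = 0.0420) and the meningeal fibroblast markers *Foxc1* (2.03, adjusted p = 9.92e-05) and *Zic4* (0.998, adjusted p = 0.0248) higher.

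In the mouse genome several members lie side by side with unlike values. On chromosome 10 *Dcn*, *Lum*, *Kera* and *Epyc* follow each other on the plus strand. Of this run *Lum* rose in both surgical groups, and *Dcn*, *Kera* and *Epyc* fell. On chromosome 13 *Ecm2*, *Aspn*, *Omd* and *Ogn* follow each other, also on the plus strand. There *Ecm2*, a leucine-rich repeat matrix protein gene, fell by 2.23 in SHAM and 1.54 in Laminectomy mice on the log2 scale (adjusted p = 6.42e-05 and 0.000786, edgeR), while *Aspn* rose in Laminectomy mice and *Omd* and *Ogn* fell in SHAM mice. *Aspn*, *Omd* and *Ogn* all lie within the span of *Cenpp* on the other strand, and *Omd* and *Ogn* share no exon bases with it. *Fmod* and *Prelp*, on chromosome 1 on opposite strands, both fell in both surgical groups. *Optc*, which lies next to *Prelp* and was at a mean of less than 1 CPM in every group, was not called.

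The promoter sequences at hand, cut at RefSeq starts (GRCm38.p6), cover 8 of the 10 members, with 2 windows for *Podn*, and lack *Dcn* and *Lum*. The 100 bases before the start of the 3 neighbours on chromosome 13, whose values were unlike, are shown with those of *Bgn*, which rose in both surgical groups, all on the plus strand: *Aspn* at chr13:49544343-49544442, *Omd* at chr13:49582362-49582461, *Ogn* at chr13:49607915-49608014 and *Bgn* at chrX:73483501-73483600. Capitals mark matches on either strand to a TATA box (TATAAA), a SMAD box (CAGAC), an E-box (CANNTG), an AP-1 motif (TGANTCA) or a GC box (GGGCGG).
Aspn: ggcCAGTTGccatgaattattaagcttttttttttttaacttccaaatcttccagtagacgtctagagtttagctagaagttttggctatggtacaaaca
Omd: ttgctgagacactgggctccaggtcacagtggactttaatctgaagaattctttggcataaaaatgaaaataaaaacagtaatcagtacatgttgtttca
Ogn: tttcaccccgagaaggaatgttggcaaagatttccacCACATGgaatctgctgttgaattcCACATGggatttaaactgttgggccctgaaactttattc
Bgn: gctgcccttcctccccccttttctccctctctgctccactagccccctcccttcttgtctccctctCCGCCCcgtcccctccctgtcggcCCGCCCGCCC
*Aspn* has 1 E-box in these bases and *Ogn* has 2, *Omd* has no match, and *Bgn* has 3 GC boxes on the other strand, starting 34, 10 and 6 bases before the start, of which the last 2 overlap. Over the 250 bases before the start, GC content was 30.0% for *Aspn*, 38.4% for *Omd*, 42.0% for *Ogn* and 64.4% for *Bgn*. In windows of that length, TATAAA occurred in 2 of the 9 member windows and in 12.4% of all 32851 windows of the table. CAGAC was in 2 of the 9 and in 42.2% of all, CANNTG in 6 and 66.2%, TGANTCA in 0 and 6.75%, and GGGCGG in 2 and 32.7%. A match describes the letters and is not evidence of binding.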

How the data were processed

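The authors made stranded mRNA libraries, aligned the reads to GRCm38 with STAR 2.6.1b, counted them per gene with featureCounts 2.0.1 (default settings) and used DESeq2 1.30.1 for their tests. They deposited a table of values per gene and mouse that are not normalized and behave as estimated counts: 15.44% of genes hold a fractional value, and such values make up 10.22% of the table. The step that made them fractional is not stated. The planned test assumed whole counts, and the deposited values were rounded to whole numbers for it.

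Genes were filtered with filterByExpr by group (4231 removed), scaled by TMM (factors 0.849 to 1.134) and fitted in a single model of all 12 mice with edgeR 4.0.16 in R 4.3.3 (glmQLFit and glmQLFTest, no covariates, Benjamini-Hochberg adjustment over all genes tested). The common dispersion was 0.0799, a biological coefficient of variation of 28.3%, so the spread between mice and not counting error sets the precision of most values. The ratio of *Bgn* to *Dcn* used counts with a prior count of 2 and a two-sided exact permutation test in scipy 1.17.1. CPM per kb used the longest protein-coding transcript of the GENCODE annotation of GRCm38, which also gave overlaps, and RefSeq GRCm38.p6 gave coordinates, identifiers and promoters. Members and gene lists were chosen with earlier results of these data known. Apart from markers and genes named for a call by DESeq2 alone, genes named from the other lists are the 2 with the largest and the 2 with the smallest log2 fold change among those called in either comparison with No operation, and genes most like a member are the 2 non-members with a mean of at least 10 CPM and the smallest difference in centred log2 CPM. Alternatives were DESeq2 1.42.0, RLE size factors, library totals, no filter, at least 10 counts in every mouse, only the groups compared, the replicate number as a block, other fold change minimums and each mouse left out.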

Additional observations from a re-analysis of the deposited data

Results flagged for a closer look

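Each member and the log2 ratio of *Bgn* to *Dcn* were screened in each group of 4 mice for a single mouse far from the others, by the gap to its nearest neighbour as a share of the group's range on the log2 scale, against Dixon's critical value for 4 samples. Of 33 groups screened 2 passed, and chance flags about 1 in 20 groups. *Podn* in Laminectomy 1 was at 11.9 CPM, where the other Laminectomy mice had 39.5 to 43.5 CPM (gap 0.926 of the range of log2 CPM). The log2 ratio of *Bgn* to *Dcn* in SHAM 1 was 0.13, where the other SHAM mice had 0.99 to 1.14 (gap 0.851 of the range).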

How the results depend on the processing

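Over 480 alternative results for single members, 455 kept their direction and their side of the threshold, 17 lost a call, 4 gained one and 4 changed sign. The sign changes were those of *Omd* in Laminectomy against No operation, at 0.034 with library totals and between -0.5416 and 0.1449 when each mouse was left out, and of *Ogn* in that comparison, at 0.0922 with library totals and between -0.3969 and 0.1988 when each mouse was left out. Neither is called under any of these settings, and both turn without No operation 3. Members called in SHAM against No operation were 5 with an absolute log2 fold change above 1, against 8, since the minimum is stricter (all genes 4589 against 7502, and 4323 against 7183 in Laminectomy against No operation). Between Laminectomy and SHAM, DESeq2 called 2 members and 687 genes, where edgeR called 0 of either. The cause was not tested. Besides library totals and left-out mice, *Dcn* in SHAM mice lost its call with the replicate block (-0.87, adjusted p = 0.0743, edgeR), and *Ogn* with no filter (-0.69, adjusted p = 0.0563, edgeR) and with only the SHAM and No operation mice fitted (-0.69, adjusted p = 0.0847, edgeR). With library totals, calls of all genes were 5179 higher and 2671 lower in SHAM mice, against 3799 and 3703 with TMM, and 5456 and 2347 in Laminectomy mice, against 3578 and 3605. Without both SHAM 1 and Laminectomy 1, chosen after seeing the data, 7, 8 and 0 members were called in SHAM against No operation, Laminectomy against No operation and Laminectomy against SHAM, with *Ogn* lost (-0.66, adjusted p = 0.111, edgeR). The difference in the log2 ratio of *Bgn* to *Dcn* from No operation lay between 2.307 and 2.951 in SHAM mice (adjusted exact permutation p 0.0571 to 0.0857) and between 2.95 and 3.662 in Laminectomy mice (adjusted exact permutation p = 0.0857) when each mouse was left out, where fewer mice raise the smallest p. Deviations of same-numbered mice from their group means correlated positively in 2 of 4 pairs of SHAM and No operation mice, in 4 of 4 of Laminectomy and No operation mice and in 2 of 4 of Laminectomy and SHAM mice (-0.228 to 0.352). In no comparison was every correlation above 0.1 or every mouse closest to its own number, and the numbers were not taken to pair the mice. With the replicate block the ratio differed by 2.536 and 3.247 (exact permutation p = 0.125, the smallest that 4 pairs allow), and 7, 8 and 0 members were called. For the other lists and the markers against No operation, the count of genes called in a direction differed by at most 1 from edgeR with TMM under DESeq2, RLE size factors and library totals, except where another count is given. Low counts limit *Omd* in SHAM mice.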
